A study of Homo sapiens with 12 samples.

Results

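The 10 genes described here set the pace of the G1 phase of the cell cycle: the D-type cyclins CCND1, CCND2 and CCND3, their kinases CDK4 and CDK6, the Cip/Kip inhibitors CDKN1A, CDKN1B and CDKN1C, and the INK4 inhibitors CDKN2A and CDKN2B. They were taken by name from the 58302 genes counted, by a list that uses no measured value but was drawn up with earlier results of these data known. RNA-seq was performed on 12 samples derived from H1, a human ESC line, with 2 samples in each of 6 groups. WT-NPCs and dKO-NPCs were neural progenitor cells at passage 2 and at passage 4, and WT-D28 and dKO-D28 cells had spent 28 days under differentiation conditions. In dKO cells the catalytic domains of the H3K27 demethylases UTX (KDM6A) and JMJD3 (KDM6B) were deleted with CRISPR/Cas9, and these cells came from puromycin-selected clones, whereas WT cells carried neither deletion. The puromycin cassette was removed from the JMJD3-deleted cells with Cre mRNA before UTX was targeted.

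NPCs of both genotypes were induced by dual SMAD inhibition with SB431542 and dorsomorphin, picked as rosettes and grown as neural spheres in N2B27 medium with bFGF and EGF. For day 28, passage 2 NPCs were plated without these growth factors in medium with GDNF, BDNF and cAMP, and the resulting population was mixed. By the study's staining, WT cells had given neurons and astrocytes by day 28. In dKO cells, which kept a rosette-like form, both were hard to find. The labels name passage 4 only, and passage 2 of the other NPCs was taken from the study's methods. No label states that the 2 samples of a group came from separate cultures, so p-values measure a spread within groups that may be technical. That spread was estimated for each gene over the 6 groups together, not from the samples compared alone. No batch is given, so a batch and a group cannot be told apart.

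D-type cyclins are made in response to growth factors and activate CDK4 and CDK6, which phosphorylate the retinoblastoma protein and so release E2F factors that switch on genes for DNA replication. INK4 proteins bind CDK4 and CDK6 directly, and Cip/Kip proteins block cyclin E-CDK2 complexes. In neural progenitors, G1 length is linked to the choice between renewal and differentiation, and the CDKN2A-CDKN2B region is a classic site of repression by H3K27me3.

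On the hg38 build, with gene models of GENCODE v44, the D-type cyclin genes lie apart, with CCND1 (ENSG00000110092) at chr11:69641156-69654474 on the plus strand, CCND2 (ENSG00000118971) at chr12:4269771-4305353 on the plus strand and CCND3 (ENSG00000112576) at chr6:41934934-42050357 on the minus strand. The kinase genes are CDK4 (ENSG00000135446) at chr12:57747727-57756013 on the minus strand and CDK6 (ENSG00000105810) at chr7:92604921-92836573 on the minus strand. Of the Cip/Kip genes, CDKN1A (ENSG00000124762) at chr6:36676460-36687337 on the plus strand, CDKN1B (ENSG00000111276) at chr12:12685498-12722369 on the plus strand and CDKN1C (ENSG00000129757) at chr11:2883213-2885775 on the minus strand are on separate chromosomes. The INK4 genes are neighbours, with CDKN2A (ENSG00000147889) at chr9:21967752-21995301 on the minus strand and CDKN2B (ENSG00000147883) at chr9:22002903-22009305 on the minus strand. Counts are summed over the exons of a gene, so isoforms, such as the p16 and ARF transcripts of CDKN2A, are not separated.

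Total counts per sample ranged from 756942 to 10601172 and were lowest at passage 2, where 3 counts corresponded to 2.09 to 3.86 CPM (counts scaled to library size, after TMM normalization). Counts of KDM6A and KDM6B span the whole genes, so they do not check the deletion of the catalytic domain: KDM6A lay between 43.6 and 60.4 CPM in WT samples and between 27.3 and 58.5 CPM in dKO samples, and KDM6B between 115 and 202 CPM and between 144 and 185 CPM. The replicates of dKO-D28 differed more than those of any other group (chi-square divided by its degrees of freedom 14, against 1.55 to 3.30 elsewhere). A spread estimated over all groups can be too small for dKO-D28, so SEs and p-values of its comparisons can be too low. Neural progenitor genes had reads at all stages, with summed CPM of the 7 listed from 3225 to 7409, a sum weighted to its most abundant genes. Of 4 pluripotency genes, POU5F1 and NANOG had no count in any sample, which was not checked for copies in alternate contigs. ZFP42 had 1 count in a single sample. DPPA4 stood at 42.4 and 30.1 CPM in WT-NPCs and 18.5 and 10.4 CPM in dKO-NPCs at passage 2 and at most 13.9 CPM elsewhere. Of the 10 genes, 8 reached a mean of 20 counts and were tested with edgeR's quasi-likelihood test among 13454 genes with Benjamini-Hochberg adjustment, a gene being called at an adjusted p below 0.05. CDKN1C and CDKN2A stayed below this mean.

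The question of the main comparisons is how gene expression differed with loss of both demethylases, in NPCs and after 28 days under differentiation conditions. At passage 2, 2 of the 8 tested members rose in dKO-NPCs, CDK6 and CDKN2B, and none fell, where 2.77% of all genes tested were called, 1.78% as higher and 0.989% as lower. At passage 4, 3 members rose (CDKN2B, CCND1 and CDKN1A) and 3 fell (CCND2, CDKN1B and CDK6), where 49.6% of all genes were called, 25.3% as higher and 24.3% as lower. At day 28, 4 rose (CDKN2B, CCND1, CCND2 and CDK4) and 2 fell (CDKN1B and CDK6), where 54.2% of all genes were called, 27.5% as higher and 26.7% as lower. Both calls of passage 2 were lost when certain single samples were left out. CDKN2B rose by 1.83, 4.0 and 2.43 on the log2 scale at the 3 stages, and CCND3 was called at none. The median log2 fold change of the 8 members was 0.21, 0.04 and 0.41 at the 3 stages, against 0.004, 0.02 and 0.003 for all genes.

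Within WT cells 1 member rose (CDKN1B) and 1 fell (CCND1) from passage 2 to passage 4, where 38.1% of all genes were called, 19% as higher and 19.1% as lower. From passage 2 to day 28, 2 rose (CDKN1A and CDKN1B) and 4 fell (CCND1, CCND2, CDK4 and CDKN2B), where 46.2% were called, 23.2% as higher and 22.9% as lower. The rise of CDKN1A (log2 0.43, adjusted p = 0.0208) lost its call under 6 of 13 alternatives, among them DESeq2 (adjusted p = 0.0561) and the correction for GC content and exonic length (log2 0.11, adjusted p = 0.477). Within dKO cells 1 rose (CDKN1A) and 1 fell (CDK6) from passage 2 to passage 4, where 19.6% were called, 8.35% as higher and 11.2% as lower. From passage 2 to day 28, 2 fell (CDK6 and CDKN2B) and none rose, where 9.56% were called, 4.31% as higher and 5.25% as lower. These comparisons share samples with those between the genotypes.

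**Figure D1:**
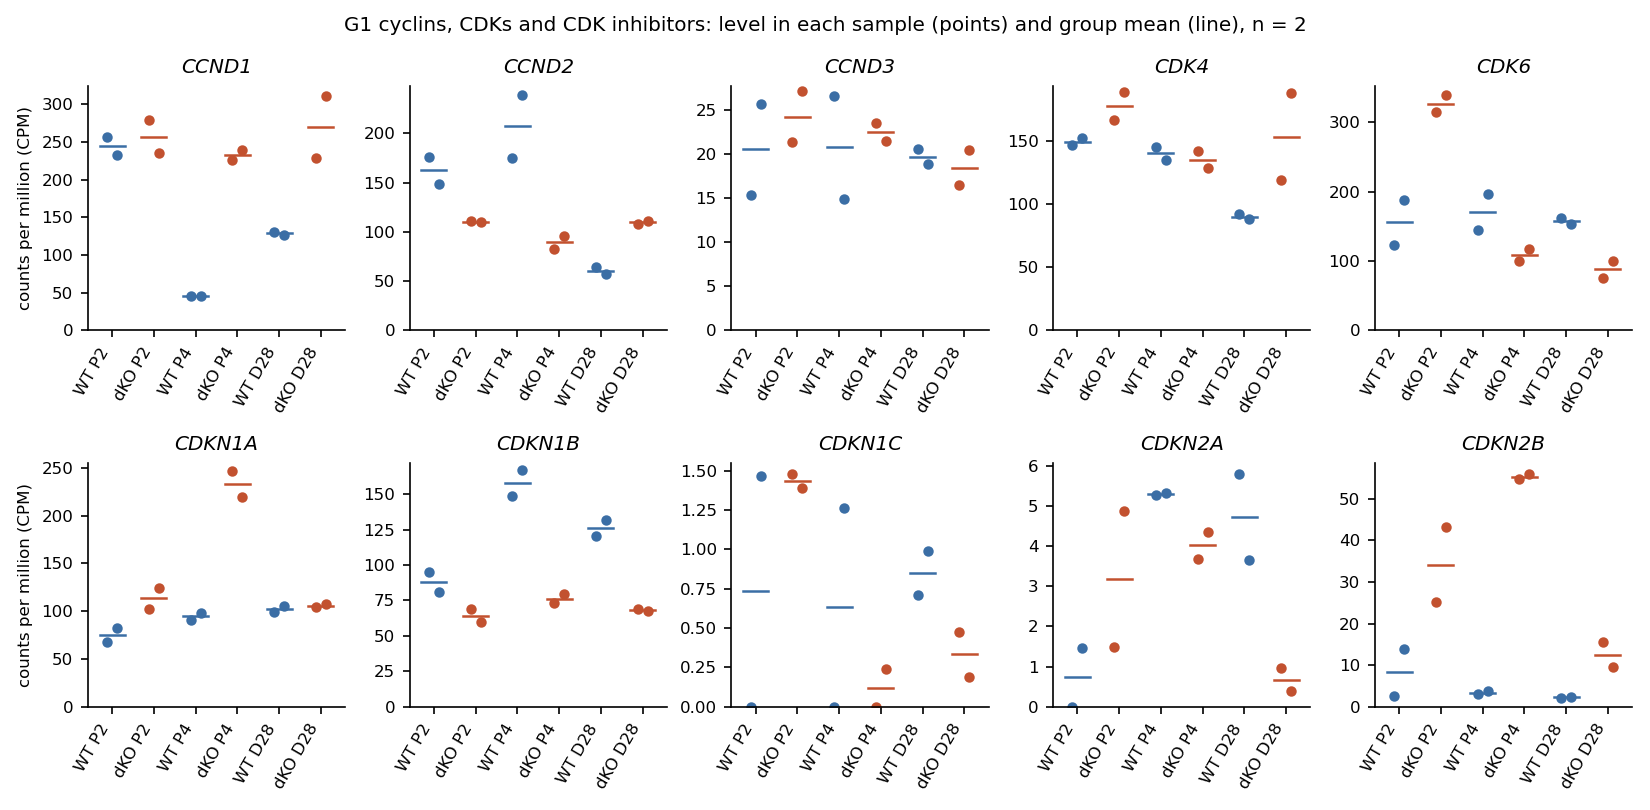
Level of each of the 10 genes in CPM (y axis, from 0, a scale per panel) in the 12 samples by group (x axis, P2 and P4 for passages 2 and 4, D28 for day 28), with points for samples and lines for the mean of the 2 samples. CCND1 stood at 45.1 and 45.0 CPM in WT NPCs at passage 4 against at least 126 CPM in every other sample, and both dKO samples of CDKN2B lay above their WT counterparts at each stage.

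CCND1, the D-type cyclin most closely tied to growth factor signals, was the member with the largest drop in WT cells. It stood at 257 and 233 CPM in WT-NPCs at passage 2, at 45.1 and 45.0 CPM at passage 4 and at 131 and 126 CPM at day 28. In dKO cells it stood at 279 and 235 CPM, at 226 and 239 CPM and at 229 and 311 CPM. The dKO samples of all stages overlapped with WT passage 2, while WT cells at passage 4 and at day 28 lay below every one of them.

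In WT NPCs CCND1 fell by 2.44 on the log2 scale from passage 2 to passage 4 (SE 0.16, adjusted p = 1.19e-08). It also fell by 0.92 from passage 2 to day 28 (SE 0.14, adjusted p = 6.43e-05). In dKO cells the changes were -0.14 (95% confidence interval -0.43 to 0.15) and 0.07 (-0.22 to 0.36), and neither passed the test. CCND1 was thus 5.16-fold higher in dKO than in WT at passage 4 (log2 2.37, SE 0.15, adjusted p = 2.64e-09) and 2.10-fold higher at day 28 (log2 1.07, SE 0.13, adjusted p = 3.76e-06). The difference of the dKO effect between passage 4 and passage 2 was 2.29 (SE 0.21, adjusted p = 1.42e-06), and between day 28 and passage 2 it was 1.00 (SE 0.20, adjusted p = 0.00111). Such a difference was called upward for 3 members and downward for 3 between the passages, where 23.2% of all genes were called, 11.2% upward and 12% downward. Between day 28 and passage 2 it was called upward for 2 and downward for 2, where 30.1% were called, 15.7% upward and 14.4% downward. Both differences use the same passage 2 samples.

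Markers of other cells moved with these values. The summed level of 7 neuron genes was 1129 to 1282 CPM in WT-NPCs at passage 2, 4055 to 4599 CPM at passage 4 and 3419 CPM in both WT-D28 samples, and in dKO samples it stayed between 601 and 1042 CPM. That of 5 astrocyte genes was 85.2 to 107 CPM in WT at passage 2, 1808 to 1963 CPM at passage 4 and 296 to 301 CPM at day 28, against 23.2 to 37.7 CPM in dKO samples. In dKO against WT, 6 of 6 tested neuron genes and 4 of 4 tested astrocyte genes fell at passage 4 and again at day 28. The shares of all genes called as lower were 24.3% and 26.7%. Of 6 tested progenitor genes, 3 fell and none rose at passage 4, and 4 fell and 1 rose at day 28. At passage 2 none of the 6 progenitor genes and none of the 6 neuron genes was called. Of the 4 astrocyte genes 1 fell there, where 0.989% of all genes were called as lower, and the astrocyte sum in dKO cells was 37.7 and 24.4 CPM. The part of these cell types in the levels of CCND1 was not tested, and in bulk samples fewer cells of a type and less RNA per cell cannot be told apart.

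CCND2, a D-type cyclin used widely by cortical progenitors, moved the opposite way at passage 4. It stood at 176 and 149 CPM (WT) against 111 and 110 CPM (dKO) at passage 2, at 175 and 239 CPM and 83.1 and 95.7 CPM at passage 4, and at 64.0 and 57.0 CPM and 108 and 111 CPM at day 28. The groups did not overlap at any stage, and dKO cells were the lower at both passages and the higher at day 28.

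At passage 2 the difference did not pass the test (log2 -0.54, SE 0.17, adjusted p = 0.102). At passage 4 CCND2 was at 0.430 of the WT level (log2 -1.22, SE 0.14, adjusted p = 3.02e-06), and at day 28 it was 1.81-fold higher in dKO (log2 0.86, SE 0.14, adjusted p = 7.77e-05). The dKO effect at day 28 differed from that at passage 2 by 1.40 (SE 0.22, adjusted p = 0.000145). In WT cells CCND2 fell by 1.41 from passage 2 to day 28 (SE 0.16, adjusted p = 2.23e-06), while in dKO cells the change was -0.01 (95% confidence interval -0.34 to 0.31).

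CCND3, the D-type cyclin best known from blood and muscle cells, was low and even. It ranged from 14.9 to 27.2 CPM over the 12 samples and was called in none of the comparisons. The intervals of its dKO effect still allowed -0.55 to 0.89 at passage 2, -0.38 to 0.67 at passage 4 and -0.57 to 0.40 at day 28 on the log2 scale.

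Exonic lengths here cover the exons of all annotated isoforms, so setting genes side by side per kilobase is approximate. On this scale CCND1 made up most of the D-type cyclin RNA in every group but WT NPCs at passage 4. Its share of the summed CPM per kb of the 3 genes was 68.6% and 67.9% in WT and 76.9% and 72.8% in dKO cells at passage 2. At passage 4 it was 26.3% and 22.5% in WT and 76.6% and 76.2% in dKO cells, and CCND2 held 60.9% and 71.3% of the WT total. At day 28 the CCND1 share was 70.4% and 71.8% in WT and 74.5% and 78.9% in dKO cells. The sum itself was 36.0 to 42.0 CPM per kb in WT cells at passage 4 and at day 28, and 61.9 to 82.8 CPM per kb in the other samples.

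**Figure D2:**
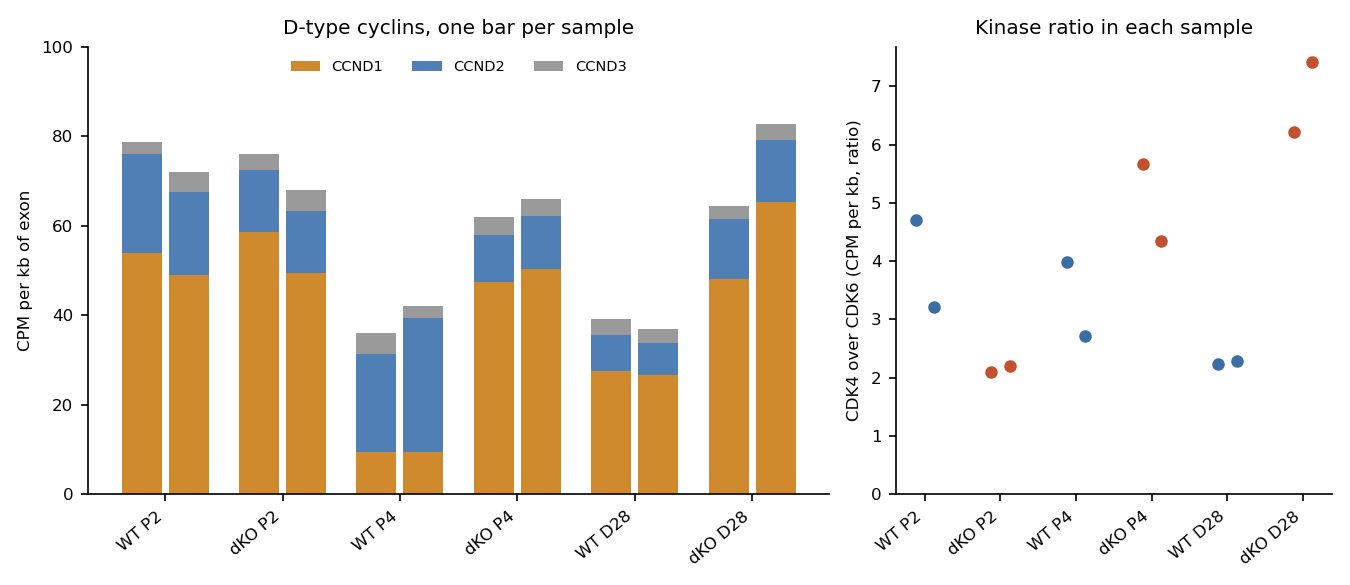
Left, CPM per kb of exon (y axis, from 0) of CCND1, CCND2 and CCND3, stacked, with a bar for each sample in the order of replicates within a group; right, ratio of CDK4 to CDK6 in CPM per kb for each sample (y axis, from 0). WT passage 4 is the only group where CCND2 holds the larger share, and the kinase ratio runs from 2.10 to 7.41.

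CDK6, which with CDK4 carries the activity of the D-type cyclins, had a dKO effect that changed sign with the stage, as did CCND2. It stood at 123 and 188 CPM (WT) against 314 and 339 CPM (dKO) at passage 2, at 144 and 197 CPM and 99.2 and 117 CPM at passage 4, and at 162 and 153 CPM and 75.9 and 100.4 CPM at day 28. The dKO samples were the highest of the series at passage 2 and the lowest at passage 4 and at day 28, and WT samples kept between 123 and 197 CPM throughout.

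CDK6 rose 2.05-fold in dKO cells at passage 2 (log2 1.04, SE 0.21, adjusted p = 0.0185), and the call was lost without WT replicate 1 (log2 0.80), dKO replicate 1 (1.09) or dKO replicate 2 (0.98), with adjusted p-values of 0.164, 0.0626 and 0.2. At passage 4 it fell by 0.67 (SE 0.19, adjusted p = 0.0111), a call lost without WT replicate 2 (-0.42, adjusted p = 0.14), without dKO replicate 1 (-0.55, adjusted p = 0.0987) and once GC content and exonic length were corrected for (-0.40, adjusted p = 0.194). At day 28 it fell by 0.83 (SE 0.19, adjusted p = 0.00216). The dKO effect differed from that at passage 2 by -1.70 at passage 4 (SE 0.28, adjusted p = 0.000877) and by -1.87 at day 28 (SE 0.28, adjusted p = 0.000276).

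Within dKO cells CDK6 fell by 1.60 from passage 2 to passage 4 (SE 0.19, adjusted p = 0.000124). It fell by 1.89 from passage 2 to day 28 (SE 0.20, adjusted p = 5.05e-05). In WT cells the same changes were 0.11 and -0.02, with intervals of -0.34 to 0.55 and -0.45 to 0.42.

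CDK4 moved less. It stood at 147 and 153 CPM (WT) against 167 and 189 CPM (dKO) at passage 2, at 146 and 135 CPM and 142 and 129 CPM at passage 4, and at 91.9 and 88.0 CPM and 119 and 188 CPM at day 28. In WT cells it fell by 0.74 from passage 2 to day 28 (SE 0.18, adjusted p = 0.00341), and at day 28 it was 1.71-fold higher in dKO cells (log2 0.78, SE 0.16, adjusted p = 0.000746). Without dKO-D28 replicate 2, the higher of the pair, that difference was 0.41 (adjusted p = 0.0447). Exons of CDK4 share 1369 bases, 44.2% of its exonic length, with TSPAN31 on the other strand, and the strand setting of the counting is not given in the sources used here.

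The ratio of CDK4 to CDK6 per kb was 4.70 and 3.21 in WT and 2.10 and 2.20 in dKO cells at passage 2. It was 3.99 and 2.72 in WT and 5.66 and 4.35 in dKO cells at passage 4, and 2.24 and 2.28 against 6.21 and 7.41 at day 28. At passage 2 both dKO samples lay below both WT samples, and at the later stages both lay above. The height of the ratio depends on the annotated lengths and on how reads in the exons shared with TSPAN31 were counted.

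**Figure D3:**
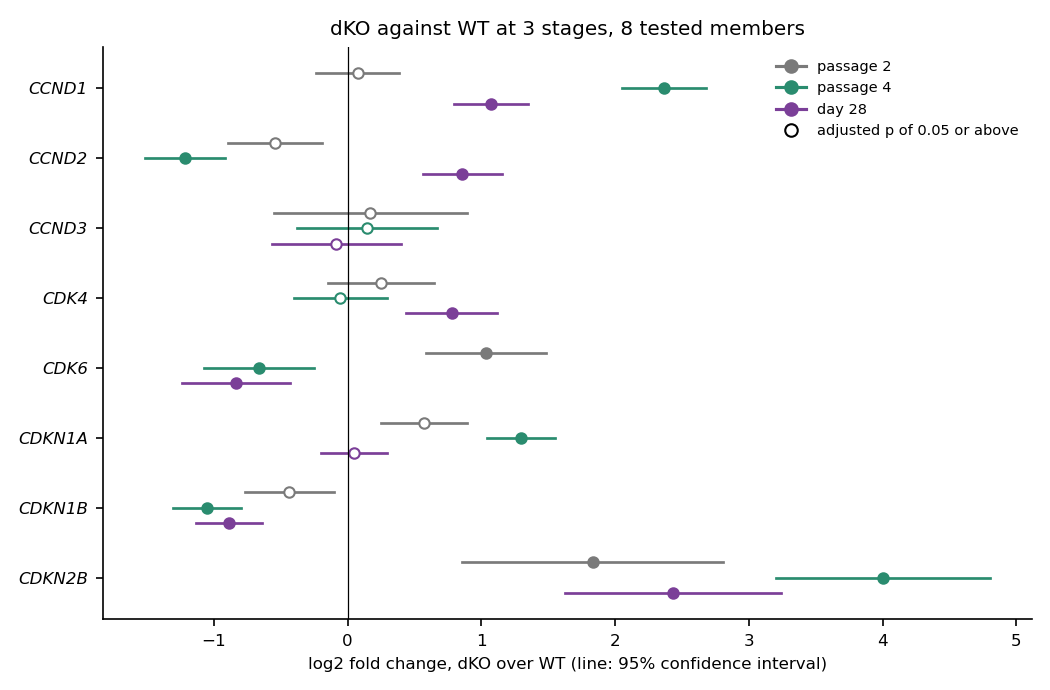
Log2 fold change of dKO over WT (x axis) with its 95% confidence interval for the 8 tested genes (y axis) at passage 2, passage 4 and day 28; filled points passed the test at an adjusted p below 0.05. CDK6 lies to the right of 0 at passage 2 and to the left later, CCND2 to the left at passage 4 and to the right at day 28, and CDKN2B to the right throughout, up to 4.0.

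CDKN1A encodes p21, the Cip/Kip inhibitor that is induced after DNA damage. It stood at 68.2 and 82.2 CPM (WT) against 103 and 124 CPM (dKO) at passage 2, at 91.2 and 98.4 CPM and 247 and 220 CPM at passage 4, and at 99.2 and 106 CPM and 104 and 108 CPM at day 28. The dKO samples at passage 4 were the highest of all, and by day 28 the groups overlapped.

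CDKN1A was 2.46-fold higher in dKO cells at passage 4 (log2 1.3, SE 0.12, adjusted p = 2.26e-07). At passage 2 the difference of 0.57 narrowly missed the threshold (SE 0.15, adjusted p = 0.0571), and at day 28 it was 0.05 (95% confidence interval -0.20 to 0.29). In dKO cells it rose by 1.04 from passage 2 to passage 4 (SE 0.13, adjusted p = 3.98e-05), and in WT cells by 0.31 without passing the test (adjusted p = 0.102). The dKO effect at passage 4 exceeded that at passage 2 by 0.72 (SE 0.19, adjusted p = 0.0131; lost without WT-NPC replicate 2, dKO-NPC replicate 1 or dKO-NPC-P4 replicate 1), and that at day 28 fell short of it, with a difference of -0.53 (SE 0.19, adjusted p = 0.0478) that lost its call under 10 of 17 alternatives. Over the 12 samples the genes whose log2 level ran closest to that of CDKN1A were BAX, COL6A3 and GPX1, with Pearson's r of 0.939, 0.939 and 0.936, given as a description over samples that share their groups.

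CDKN1B encodes p27, the Cip/Kip inhibitor that accumulates as cells leave the cycle. It stood at 95.2 and 80.8 CPM (WT) against 68.8 and 59.9 CPM (dKO) at passage 2, at 149 and 167 CPM and 73.4 and 79.2 CPM at passage 4, and at 121 and 132 CPM and 69.0 and 67.5 CPM at day 28. All dKO samples lay between 59.9 and 79.2 CPM, below every WT sample.

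In WT cells CDKN1B rose by 0.86 from passage 2 to passage 4 (SE 0.14, adjusted p = 0.000129) and by 0.54 to day 28 (SE 0.14, adjusted p = 0.00371). In dKO cells the changes were 0.25 (95% confidence interval -0.05 to 0.54) and 0.09 (-0.21 to 0.38). CDKN1B was therefore at 0.483 of the WT level in dKO cells at passage 4 (log2 -1.05, SE 0.12, adjusted p = 2.28e-06) and at 0.540 at day 28 (log2 -0.89, SE 0.12, adjusted p = 7.75e-06). At passage 2 the difference was -0.43 and did not pass (SE 0.16, adjusted p = 0.176). The difference of the dKO effect between passage 4 and passage 2 was -0.62 (SE 0.20, adjusted p = 0.0327), a call lost under 7 of 17 alternatives, among them DESeq2 (adjusted p = 0.0704) and plain totals (-0.43, adjusted p = 0.12). Over the 12 samples CDKN1B ran opposite to CCND1, with Pearson's r of -0.900 on log2 levels, the largest in size of any pair of tested members. This is a description over 12 samples in 6 groups, which are not 12 independent points.

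The bases before the starts of CDKN1B and CDKN2B are shown because these inhibitors moved in opposite directions in dKO cells at the later stages. Windows of 250 bases before the RefSeq start (GRCh38 build) were matched for 7 of the 10 members, and CCND1, CCND2 and CDKN1C had no entry. Each window is written on the strand of its gene, with the GC boxes (GGGCGG or its complement CCGCCC) that SP-family factors bind in capitals. The CDKN1B window at chr12:12717118-12717367 on the plus strand holds 1 GC box, and the CDKN2B window at chr9:22009306-22009555 on the minus strand holds 2. Of all 35116 windows, 42.6% hold at least 1, and neither window printed here overlaps an annotated exon.
CDKN1B: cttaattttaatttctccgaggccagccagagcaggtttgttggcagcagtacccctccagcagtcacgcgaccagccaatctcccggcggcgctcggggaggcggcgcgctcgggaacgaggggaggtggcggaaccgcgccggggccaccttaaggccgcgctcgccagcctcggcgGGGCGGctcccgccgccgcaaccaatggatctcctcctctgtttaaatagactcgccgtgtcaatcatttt
CDKN2B: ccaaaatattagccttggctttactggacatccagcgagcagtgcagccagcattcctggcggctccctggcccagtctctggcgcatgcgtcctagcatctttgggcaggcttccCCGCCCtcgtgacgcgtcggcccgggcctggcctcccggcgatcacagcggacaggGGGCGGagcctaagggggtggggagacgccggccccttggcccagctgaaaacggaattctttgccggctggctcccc

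The CDKN1B window also holds 2 CCAAT boxes (CCAAT or ATTGG), a motif that 32.0% of all windows hold, and the CDKN2B window holds none. The windows of CDK6 and CDKN1A hold up to 3 and 4 GC boxes. That of CDK4 holds 3 E-boxes (CACGTG, its own complement), the sequence that MYC proteins bind, against 6.3% of all windows with at least 1. None of these 7 genes has an E2F site written as TTTGGCGC or TTTCCCGC, or its complement, in the window, and 0.5% and 1.4% of all windows hold these letters.

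CDKN2B encodes p15, an INK4 inhibitor known for its induction by TGF-beta. It stood at 2.57 and 13.95 CPM (WT) against 25.1 and 43.2 CPM (dKO) at passage 2, at 2.96 and 3.80 CPM and 54.7 and 56.1 CPM at passage 4, and at 2.13 and 2.38 CPM and 15.5 and 9.51 CPM at day 28. The groups did not overlap at any stage. The WT samples of passage 2 were far apart, on 2 and 19 counts, and the lower lay under the 3-count limit of its library.

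CDKN2B was 16-fold higher in dKO than in WT at passage 4 (log2 4.0, SE 0.37, adjusted p = 8.6e-07) and 5.39-fold higher at day 28 (log2 2.43, SE 0.38, adjusted p = 8.51e-05). Both calls held under the 12 alternatives that could be fitted. The filter of at least 10 counts in every sample left CDKN2B out, as its lowest count was 2. Its mean of 63.9 counts, by which it passed the main filter, rests largely on the dKO samples. At passage 2 CDKN2B was 3.56-fold higher in dKO (log2 1.83, SE 0.45, adjusted p = 0.0479). Without WT replicate 2 the passage 2 value was 3.72 (adjusted p = 0.0187), without WT replicate 1 it was 1.3 (adjusted p = 0.286), and without dKO replicate 2 it was 1.39 (adjusted p = 0.392). The call was also lost with upper-quartile factors (1.81, adjusted p = 0.0523), plain library totals (1.80, adjusted p = 0.0544) and the replicate number as a block (1.85, adjusted p = 0.0547).

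In dKO cells CDKN2B fell by 1.47 from passage 2 to day 28 (SE 0.34, adjusted p = 0.0127), a call lost without dKO-NPC replicate 2 (-1.03, adjusted p = 0.255). In WT cells it fell by 2.07 (SE 0.57, adjusted p = 0.0083), but by 0.18 without WT-NPC replicate 2 (adjusted p = 0.922). The dKO effect was larger at passage 4 than at passage 2 by 2.17 (SE 0.67, adjusted p = 0.0306) and, without that same sample, by 0.28 (adjusted p = 0.912).

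The summed level of 7 mesenchymal genes, like CDKN2B, was higher in dKO than in WT cells at each stage. Of these 7, 5 were tested, and 2, 4 and 3 rose in dKO cells at passage 2, passage 4 and day 28, with 2 falling at day 28. The shares of all genes called as higher were 1.78%, 25.3% and 27.5%, and 26.7% were called as lower at day 28. The summed level of the 7 genes was 149 and 375 CPM in the WT samples of passage 2, in the same order as the 2.57 and 13.95 CPM of CDKN2B, and 848 and 1023 CPM in the dKO samples. It was 248 to 257 CPM in WT and 1696 to 1715 CPM in dKO cells at passage 4, and 193 to 205 CPM and 293 to 400 CPM at day 28. COL1A2, a fibrillar collagen gene, stood at 55.3 and 55.4 CPM (WT) against 795 and 791 CPM (dKO) at passage 4. None of the 7 was at 0 in every sample. The summed level of 4 endothelial genes was 4.28 to 4.81 CPM in WT and 85.8 to 91.3 CPM in dKO cells at passage 4. Only KDR was tested, with the highest count of the list at 354, and the others stayed below a mean of 20 counts. That sum in dKO cells thus rests mostly on KDR. The presence of mesenchymal or endothelial cells and their part in the level of CDKN2B were not tested. The genes closest to CDKN2B over the 12 samples were ITGB1, LAMC1 and KIRREL1, which encode proteins of cell adhesion, with r of 0.963, 0.961 and 0.960. They were picked as the highest of all genes tested, as a description over samples that share their groups.

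CDKN2A, which encodes p16 and ARF and lies next to CDKN2B on chromosome 9, had few reads and another pattern. It had 0 and 2 counts in WT and 2 and 7 counts in dKO cells at passage 2, 16 and 21 counts against 16 and 18 counts at passage 4, and 49 and 37 counts against 4 and 2 counts at day 28. In CPM this was 5.27 and 5.31 against 3.69 and 4.35 at passage 4, and 5.79 and 3.67 against 0.955 and 0.380 at day 28, where the limits of the dKO libraries are 0.716 and 0.570 CPM. At day 28 the groups did not overlap and WT was the higher, the opposite order to CDKN2B. When every gene with a count in any sample was kept, 34982 in all, the day 28 difference was -2.88 (SE 0.56, adjusted p = 2.16e-06) and that at passage 4 was -0.43 (SE 0.44, adjusted p = 0.687). The exons of CDKN2A share 593 bases, 15.3% of their length, with the antisense gene CDKN2B-AS1.

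Of the other neighbours, DMRTA1 and MTAP were tested and both rose in dKO cells at passage 4 and at day 28. The shares of all genes called as higher were 25.3% and 27.5%. DMRTA1, a gene of the DMRT transcription factor family, stood at 3.95 and 5.82 CPM (WT) against 58.8 and 64.3 CPM (dKO) at passage 4 (log2 3.62, SE 0.50, adjusted p = 0.000277), and at 4.97 and 3.47 CPM against 33.4 and 86.1 CPM at day 28 (log2 3.85, SE 0.43, adjusted p = 5.6e-05). MTAP, an enzyme of methionine salvage, rose by 0.79 and 1.54. At passage 2 neither was called.

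**Figure D4:**
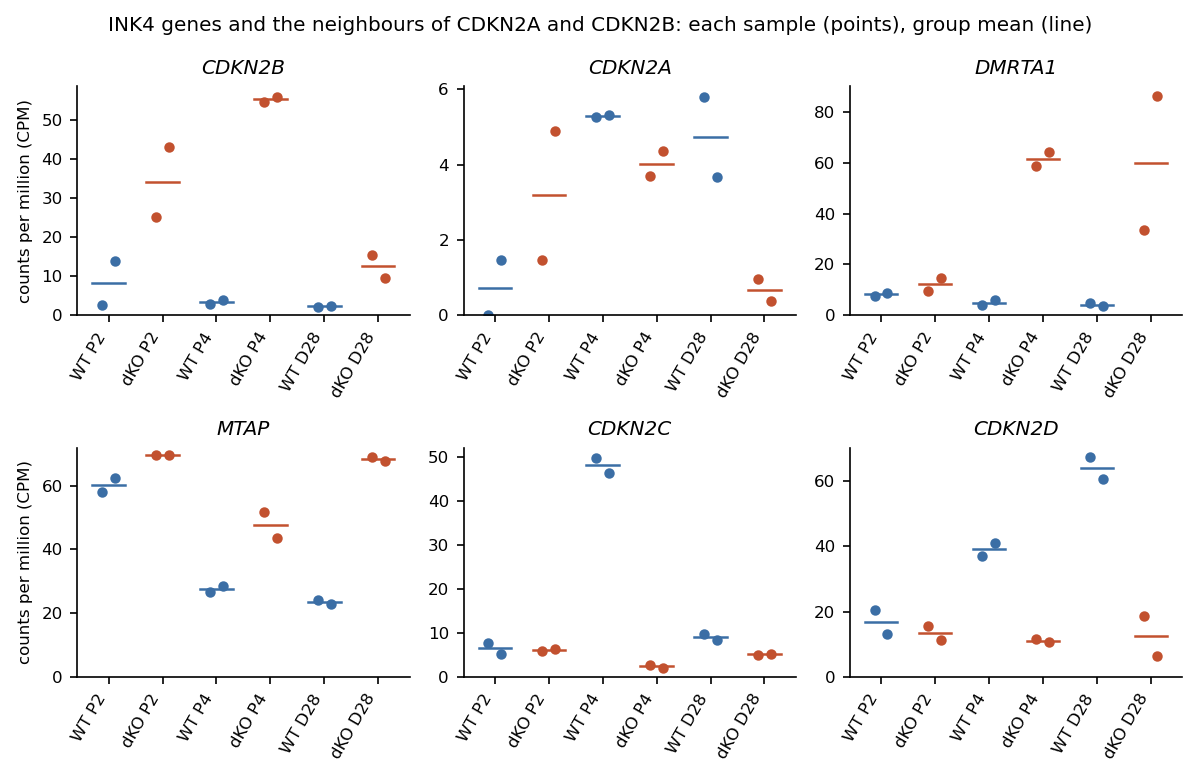
Level in CPM (y axis, from 0, a scale per panel) of CDKN2B, CDKN2A, their neighbours DMRTA1 and MTAP, and the INK4 genes CDKN2C and CDKN2D in each sample (points) by group (x axis), with lines for the mean of 2 samples. At passage 4 CDKN2B and DMRTA1 are high in dKO cells and CDKN2C and CDKN2D in WT cells, and CDKN2A is at most 5.79 CPM in any sample.

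The remaining INK4 genes fell in dKO cells at passage 4 and at day 28, where 24.3% and 26.7% of all genes were called as lower. CDKN2C, which encodes p18, stood at 49.7 and 46.3 CPM (WT) against 2.77 and 1.93 CPM (dKO) at passage 4 (log2 -4.33, SE 0.26, adjusted p = 1.51e-09), and at 9.70 and 8.33 CPM against 5.02 and 5.13 CPM at day 28 (log2 -0.82, SE 0.24, adjusted p = 0.00812). CDKN2D, which encodes p19 and is kept by neurons, stood at 37.2 and 41.0 CPM against 11.5 and 10.6 CPM at passage 4 (log2 -1.82, adjusted p = 0.00122) and at 67.3 and 60.8 CPM against 18.6 and 6.27 CPM at day 28 (log2 -2.41, adjusted p = 6.23e-05). Both rose in WT cells from passage 2 to passage 4, CDKN2C by 2.96 and CDKN2D by 1.28, as did the neuron and astrocyte genes above. From passage 2 to day 28 only 1 of the 2 rose in WT cells. CDKN2C averaged 6.43 CPM in WT-NPCs at passage 2 and 9.01 CPM in WT-D28 cells, where the neuron genes summed to 3419 CPM and the astrocyte genes to 296 and 301 CPM.

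CDKN1C, an imprinted gene that encodes p57, had at most 10 counts in any sample and was not tested. Of the windows of 75 bases in its exons, 84.2% have an exact copy in an alternate contig of hg38. NAP1L4 next to it, with 87.0% of windows copied, had 1 to 83 counts, PHLDA2 with every window copied had none, and CDK7 with 90.8% copied had 0 to 5. The other 9 members had no window with such a copy. htseq-count leaves out reads that align more than once, and whether the authors' index held these contigs is not given in the sources used here, so the counts of CDKN1C set no upper limit on its RNA.

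Beyond the members, genes of the later cell cycle were higher in dKO cells at day 28, where 27.5% of all genes were called as higher. Of 21 S, G2 and M phase genes, 21 rose in dKO-D28 against WT-D28 cells, with a median of 2.00 against 0.003 for all genes. In WT cells all 21 fell from passage 2 to day 28 (median -2.16), and in dKO cells none was called (median -0.18). TOP2A, the topoisomerase of dividing cells, stood at 138 and 139 CPM (WT-D28) against 517 and 566 CPM (dKO-D28) (log2 1.96, SE 0.11, adjusted p = 7.55e-10). Of the 10 E2F and DP factors 7 rose in dKO cells at day 28, with E2F7 at 15.8 and 13.4 CPM against 61.1 and 90.9 CPM, and of 6 tested genes of the cyclin E and CDK2 step 4 rose, with CDK2 at 27.2 and 26.3 CPM against 73.3 and 101 CPM.

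At passage 4 the S, G2 and M list and the E2F and DP list held calls in both directions, at shares near the 25.3% higher and 24.3% lower of all genes. Of the 21 S, G2 and M phase genes 4 rose and 6 fell in dKO cells, MKI67 from 523 and 639 CPM to 272 and 286 CPM and TYMS, thymidylate synthase, the other way, from 87.5 and 89.1 CPM to 171 and 160 CPM. Of the E2F and DP factors 3 rose and 2 fell. The 3 pocket protein genes, RB1, RBL1 and RBL2, fell by 0.62, 0.66 and 0.33, and at day 28 none of them was called. At passage 2 no gene of the E2F, cyclin E, pocket protein or S, G2 and M lists was called.

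**Figure D5:**
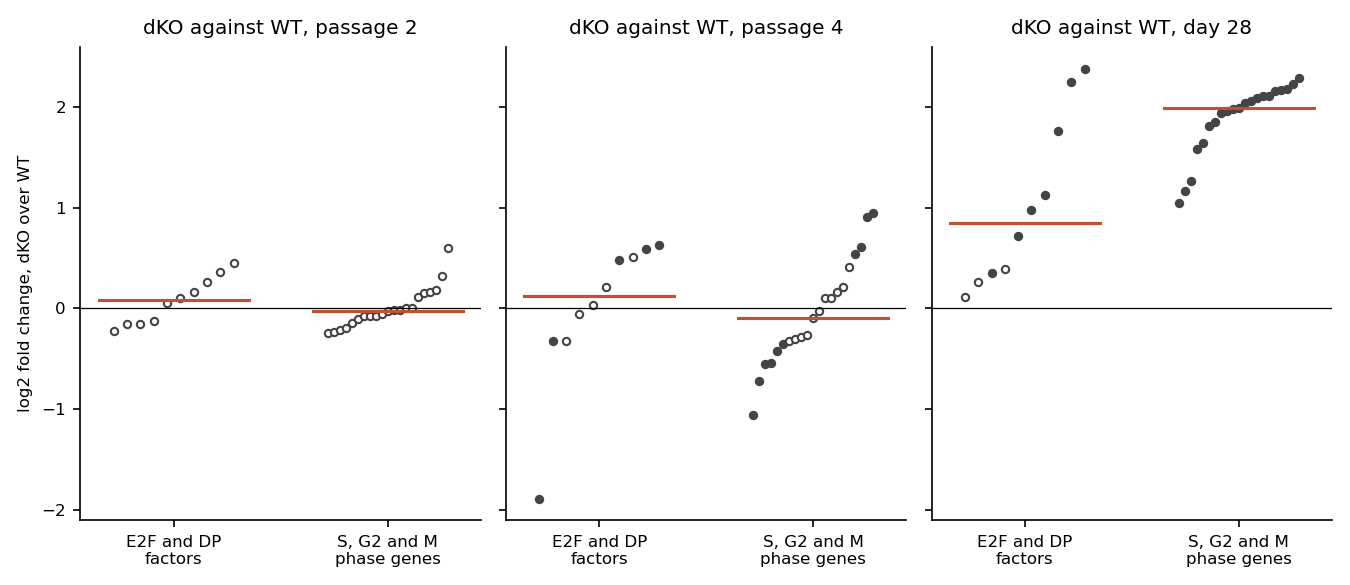
Log2 fold change of dKO over WT (y axis) for each tested gene (points, sorted by value within a list; filled where the adjusted p was below 0.05) of 10 E2F and DP factors and 21 S, G2 and M phase genes (x axis), with the median as a line, at the 3 stages. At day 28 the S, G2 and M phase genes all lie above 1, with a median of 2.00, and at passage 4 they spread on both sides of 0.

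Of the 3 MYC genes, 2 rose in dKO cells at day 28, and MYCL stood at 33.6 and 34.8 CPM against 27.2 and 28.1 CPM without passing the test (adjusted p = 0.0979). MYCN stood at 31.9 and 28.0 CPM (WT-D28) against 61.4 and 120 CPM (dKO-D28) (log2 1.61, adjusted p = 0.000193), and MYC at 5.79 and 4.96 CPM against 9.79 and 19.2 CPM (log2 1.46, adjusted p = 0.000214). At passage 4, 1 of the 3 rose and 1 fell, where 25.3% of all genes were called as higher and 24.3% as lower. Mean MYC was 10.5 CPM (WT) against 27.0 CPM (dKO) there, and mean MYCL 43.6 CPM against 14.8 CPM. CCND2 fell at that stage and CDK4 was not called. A link between MYC genes and the members was not tested. Of 8 genes for the turnover of G1 regulators, 3 rose and 5 fell at day 28, where 27.5% of all genes were called as higher and 26.7% as lower. SKP2, the ubiquitin ligase subunit that marks p27 for destruction, stood at 26.2 and 29.8 CPM in WT-D28 against 59.0 and 89.7 CPM in dKO-D28 cells (log2 1.41, SE 0.17, adjusted p = 3.15e-06). At passage 4, where CDKN1B was also lower in dKO cells, none of the 8 turnover genes rose and 3 fell. Protein was not measured, and a part of SKP2 in the level of CDKN1B was not tested.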

How the data were processed

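RNA was measured in 12 samples, 2 per group, grouped by the labels. Per the study's methods, the authors made TruSeq libraries, sequenced them on an Illumina NextSeq, mapped reads to hg38 with HISAT2 and obtained counts per Ensembl gene with SAMtools and htseq-count. The submitters' notes name HISAT2 2.0.4, SAMtools 1.3.1, HTSeq 0.6.0 and DESeq 1.18.1. The authors deposited raw counts without normalization, and their EDASeq and DESeq steps are not part of them. The annotation release they counted on is not given in the sources used here.

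Of 58302 genes, 57532, with 99.8% of counts, were found in GENCODE v44, which gave symbols, exonic length and overlaps. A single fit of 6 group means over 12 samples was made in edgeR 4.0.16 (R 4.3.3) with TMM factors and robust quasi-likelihood F tests, for the 13454 genes whose mean reached 20 counts. P-values were Benjamini-Hochberg adjusted within each comparison. The SE is the log2 fold change divided by the square root of F. The test was tested on simulated data for the 3 comparisons of dKO with WT. Limits of 3 counts were 0.297 to 3.86 CPM and cover counting error only. With 2 samples a group, an exact permutation test cannot go below p = 0.333. Alternatives were DESeq2, other scalings, filters, call rules, a GC and length correction, a replicate block and leaving out samples. The 10 genes, the lists and the tests were chosen with earlier results of these data known. Named were all members, KDM6A and KDM6B, at most 3 genes per list and comparison by smallest p, the 3 genes most like a member, and overlapping or neighbouring genes. Promoter windows are from RefSeq. Some genes among the lists are not reported here.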

Additional observations from a re-analysis of the deposited data

Results flagged for a closer look

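The effect of the knockout differed between stages, by a test of the difference itself in edgeR with Benjamini-Hochberg adjustment, for 4 members between day 28 and passage 2. These log2 differences were -1.87 for CDK6 (SE 0.28, adjusted p = 0.000276), 1.40 for CCND2 (SE 0.22, adjusted p = 0.000145), 1.00 for CCND1 (SE 0.20, adjusted p = 0.00111) and -0.53 for CDKN1A (SE 0.19, adjusted p = 0.0478). Between passage 4 and passage 2 it differed for 6 members. The differences were 2.29 for CCND1 (adjusted p = 1.42e-06), 2.17 for CDKN2B (adjusted p = 0.0306), -1.70 for CDK6 (adjusted p = 0.000877), 0.72 for CDKN1A (adjusted p = 0.0131), -0.67 for CCND2 (adjusted p = 0.0348) and -0.62 for CDKN1B (adjusted p = 0.0327). Of 17 alternatives (16 for CDKN2B), 8 lost the passage 4 call of CCND2, 7 that of CDKN1B, 6 that of CDKN2B and 3 that of CDKN1A, and none that of CCND1 or CDK6. The day 28 call of CDKN1A was lost under 10 of 17. Both sets of differences rest on the same 4 samples of passage 2, which had the lowest totals.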

How the results depend on the processing

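With 2 samples a group and the lowest totals at passage 2, calls that involve passage 2 were the least stable, and counts below 3 in a library could not be told from 0. Of the 8 tested members, 2 were called between genotypes at passage 2. That number was 1 with upper-quartile factors, plain library totals, a minimum of 10 counts, the replicate number as a block, or the block with a GC and length correction. It was 4 with genes of at least 1 count kept or with only the samples compared. Leaving out a sample gave 0 to 2, with 0 without WT-NPC replicate 1 or dKO-NPC replicate 2 and 1 without dKO-NPC replicate 1.

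By the study's rule of an unadjusted p below 0.05 and a change over 2-fold, the members called were 2 of 6 at day 28, 2 of 6 in WT-D28 against WT-NPCs, 2 of 4 for the day 28 difference and 3 of 6 for the passage 4 difference. In WT-D28 against WT-NPCs leaving out a sample gave 3 to 6, with 3 without WT-NPC replicate 2. In dKO-D28 against dKO-NPCs the 2 calls became 1 with a minimum of 10 counts, with only the samples compared, or without dKO-NPC replicate 2. From passage 2 to passage 4 the 2 calls in WT became 5 with genes of at least 1 count and 4 with the GC and length correction or only the samples compared, and the 2 in dKO became 4 with only the samples compared. For the passage 4 difference leaving out a sample gave 2 to 6, with 2 without WT-NPC replicate 2, dKO-NPC replicate 1 or dKO-NPC-P4 replicate 1 and 3 without WT-NPC-P4 replicate 2. No direction of a called member was turned by an alternative. DESeq2 lost the calls of CCND2 (adjusted p = 0.0552) and CDKN1B (0.0704) for the passage 4 difference, of CDKN1A for the day 28 difference (0.112) and of CDKN1A in WT-D28 against WT-NPCs (0.0561).

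Over all genes the 373 calls at passage 2 became 704 with genes of at least 1 count, 837 with only the samples compared, 596 by the study's rule, 20 without dKO-NPC replicate 2 and 70 without WT-NPC replicate 1. By the study's rule 6672 became 3001 at passage 4, 7287 became 3250 at day 28, and in WT 6212 became 3281 to day 28 and 5128 became 2663 to passage 4, which was 3151 without WT-NPC replicate 2. In dKO cells the 1286 calls to day 28 became 2309 with genes of at least 1 count, 490 with only the samples compared and 587 to 2456 on leaving out a sample, and the 2635 to passage 4 became 4096, 1322 by the study's rule and 1246 to 1706. The 3115 calls of the passage 4 difference became 2039 without WT-NPC replicate 2. Plain totals moved the median of all genes at passage 4 from 0.020 to 0.176 and the share of calls that were higher from 51.0% to 63.9%, and for the passage 4 difference from 0.005 to 0.192 and from 48.2% to 65.9%.

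The replicate numbers gave no clear sign of pairing, since deviations of same-numbered samples correlated by 0.018 on average (-0.058 to 0.194 over 15 pairs of groups). Between the genotypes of one stage the values were 0.064 at passage 2, 0.194 at passage 4 and -0.047 at day 28. Counting noise can hide a shared effect in such values, so pairing was not excluded. Apart from passage 2, the block left 6 members called at passage 4 and 6 at day 28.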
